A study of Mus musculus with 20 samples.

Results

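The comparison described here is male against female mice that were not stressed, for autosomal genes, in the adBNST. BNST is short for bed nucleus of the stria terminalis, and ad for its anterodorsal part. The libraries compared are those the labels give as control, 5 male and 5 female, so 10 of the 20 libraries of the series. The genes are the 12507 that RefSeq places on numbered chromosomes, of 12988 in the deposited table, and genes on the X and Y chromosomes and 5 unplaced genes were left out. The study had 4 groups of 15 mice: female control, male control, female stressed and male stressed. Mice were 7 to 9 weeks old when they entered a group. The stressed mice went through 6 weeks of chronic variable mild stress (CVMS), a schedule of changing minor stressors, and their tissue was taken 1 hour after the last one. The controls of both sexes were kept under control conditions, and the labels name no stressor for them. All mice, controls included, received ketamine anaesthesia before the brain was removed. Tissue of 3 mice was pooled for each library, so a library averages over 3 mice and p-values measure the spread between pools, not between single mice. The strain and the stage of the females' cycle are not given in the sources used here.

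The bed nucleus of the stria terminalis is a cluster of mostly GABAergic forebrain neurons that links the amygdala with the hypothalamus and is known for its part in anxiety, stress hormone release and appetite. It is rich in neuropeptides and their receptors, and it is one of the rodent brain regions known to differ between the sexes. Corticosterone from the adrenal gland enters this tissue, binds receptors that a chaperone complex built on Hsp90 holds ready, and the bound receptor switches on a set of well-known target genes. Heat shock proteins are chaperones that fold or rescue other proteins.

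The 10 control libraries held 2707881 to 31644623 counts, with the fewest in female control 4 and the most in male control 5. The sex of all 20 libraries, read from Xist and Y-linked genes, matched their labels. All 20 markers listed for this nucleus and the extended amygdala were detected in every control library. Among them the GABA-synthesis gene Gad1 ranged from 685 to 742 CPM (counts scaled to a fixed library total after TMM adjustment), the GABA transporter gene Slc32a1 from 276 to 326 CPM and the stress peptide gene Crh from 14.5 to 25.7 CPM. Markers of the medium spiny neurons of the striatum, which lies beside the nucleus, were also present and differed between libraries, as given with the genes that were lower in males.

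Of the 12507 autosomal genes, 82 (0.656%) were called different between control males and control females at an adjusted p under 0.05 in edgeR's quasi-likelihood test. Of these, 44 (0.352%) were higher in males and 38 (0.304%) were lower. Most differences were small: the log2 fold changes of the called genes had sizes from 0.21 to 1.45, and 4 of the higher and 2 of the lower genes differed by more than 2-fold. The 4 were Hspa1b, Hspa1a, Plekhf1 and Sgk1, and the 2 were Tmem200b and Scn4b. The male and female libraries did not overlap for 38 of the 44 higher and 34 of the 38 lower genes, where 1.84% and 2.01% of all autosomal genes were free of overlap in those directions. The number of calls depended on single libraries. It was 33 without female control 1, 45 without female control 4, 22 without female control 5, 35 without male control 1, 31 without male control 2, 28 without male control 3, 44 without male control 4 and 194 without female control 3. Among the 14 genes called in all 20 alternative fits were Gpr161, Sgk1, Ccdc117, Fam126a, Spry4, Bcl6, Dnajb1, Mc4r, Arrdc2 and Slc5a3, higher in males, and Cd59a, Cldn5 and Exph5, lower in males.

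**Figure D1:**
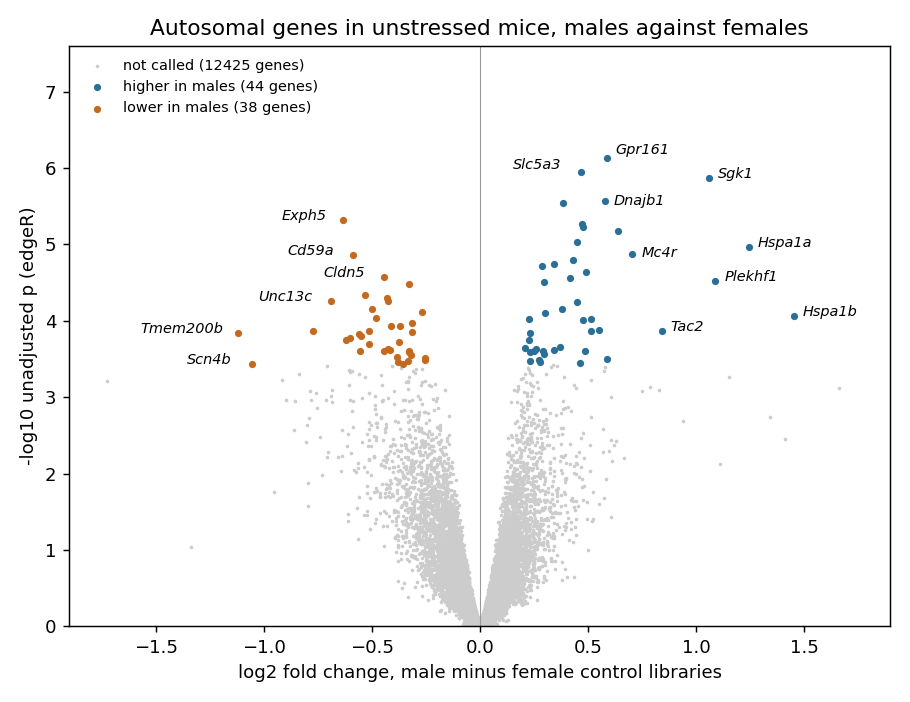
Log2 fold change of each autosomal gene, male minus female control libraries, against minus log10 of its unadjusted p. The 44 genes called higher and the 38 called lower are coloured, and most of them lie within 1 log2 unit of 0.

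Genes induced by glucocorticoids stood higher in control males. Of the 24 autosomal members measured, 5 were called higher and 0 lower, 13 had an unadjusted p under 0.05 in the higher direction and 0 in the lower direction, where 6.92% and 8.23% of all autosomal genes did. The share of all autosomal genes called higher was 0.352%. The median log2 fold change of the 24 was 0.30, against about 0 over all autosomal genes, and 19 of the 24 were higher in males. The mean centred log2 CPM of the list lay between -0.24 and -0.11 in the female and between 0.03 and 0.40 in the male libraries, so the sexes did not overlap. Such a separation was not particular to this list. It was also seen for potassium channels and for zinc transporters and metallothioneins, lists with 0 calls in edgeR. Other lists separated too, among them neuropeptide receptors, Zfp genes, cadherins and protocadherins, and endothelial and pericyte markers. The 5 called genes were Sgk1, Arrdc2, Bcl6, Ddit4 and Tiparp.

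Sgk1, the serum- and glucocorticoid-regulated kinase at chr10:21882184-21999903 (RefSeq, GRCm38.p6), was measured at 63.2, 51.6, 51.4, 63.6 and 65.8 CPM in female controls 1 to 5 and at 74.1, 127, 117, 112 and 178 CPM in male controls 1 to 5. Every male library was above every female one, with male control 1 the lowest and male control 5 the highest of the males. The difference was 1.06 ± 0.16 on the log2 scale (SE, adjusted p = 0.00161), and in a fit that takes each library's striatal marker level as a covariate (the striatal covariate) it was 1.13, with an edgeR adjusted p of 0.00462. The 250 bases before the RefSeq start of Sgk1, chr10:21993640-21993889 on the plus strand, are shown because the gene heads this list and the window holds the half-sites ACA and TGTNC set 3 bases apart, the core of the sequence that the glucocorticoid receptor is known to bind (N is any base). The start in that table lies inside the annotated span of Sgk1, which also has starts further upstream. The search read both strands, and in the sequence the capitals mark its 2 overlapping matches, 1 on each strand.
Sgk1 promoter: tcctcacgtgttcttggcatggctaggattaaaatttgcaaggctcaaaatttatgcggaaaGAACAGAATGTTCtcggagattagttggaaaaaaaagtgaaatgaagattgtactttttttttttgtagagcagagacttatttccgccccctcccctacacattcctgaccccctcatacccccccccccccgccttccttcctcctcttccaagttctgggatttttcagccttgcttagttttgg
The same half-sites were found in that window in 3 of the 22 list members with a promoter in the RefSeq table (Sgk1, Map3k6 and Mt1), in 2 of 38 called higher genes (Sgk1 and Zfp948), in 0 of 28 called lower genes and in 2.15% of the 9934 autosomal genes with one. A match describes the letters only.

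Arrdc2, an arrestin-domain protein, had 9.13, 9.39, 8.61, 10.5 and 8.22 CPM in females and 10.4, 17.2, 14.9, 13.5 and 15.1 CPM in males. The groups overlapped narrowly, since male control 1 was just under female control 4, and the other 4 male libraries were higher. The difference was 0.64 ± 0.11 on the log2 scale (SE, adjusted p = 0.00453). Ddit4, an inhibitor of the growth kinase complex mTORC1, was nearly level in females at 23.9, 24.3, 23.9, 24.5 and 22.1 CPM and higher in males at 25.9, 35.4, 32.3, 28.8 and 42.2 CPM, without overlap. Its difference was 0.48 ± 0.10 on the log2 scale (SE, adjusted p = 0.027). The transcriptional repressor gene Bcl6 had 30.99, 31.6, 26.5, 26.4 and 29.5 CPM in females and 38.9, 42.2, 37.3, 42.7 and 39.2 CPM in males, again without overlap, with 0.45 ± 0.08 on the log2 scale (SE, adjusted p = 0.00609). For Tiparp, an enzyme that attaches ADP-ribose to proteins, the values were 28.4, 19.6, 22.3, 22.96 and 23.2 CPM in females and 24.4, 35.4, 35.6, 29.5 and 37.4 CPM in males, with 0.46 ± 0.11 on the log2 scale (SE, adjusted p = 0.0485). Male control 1 fell within the female range for Tiparp. The list had 3 called members when female control 5, male control 2 or male control 3 was left out, and 7 with the striatal covariate. Among all autosomal genes those fits called 17, 18, 22 and 39 higher, in that order.

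The receptors that bind corticosterone and their cochaperones gave no calls in the fit of groups alone. Of 13 measured members, which include the receptor genes Nr3c1 and Nr3c2, 0 were called in either direction by edgeR and 0 by DESeq2, with 3 at an unadjusted p under 0.05 in the higher and 1 in the lower direction, and 0 were free of overlap. Fkbp5, a cochaperone that is also a classic glucocorticoid target, had 40.3, 32.9, 31.6, 42.2 and 37.96 CPM in females and 49.3, 56.2, 35.3, 43.7 and 39.7 CPM in males, with 0.29 ± 0.10 on the log2 scale (SE, adjusted p = 0.17). The cochaperone genes Ptges3, with 0.20 ± 0.07 (adjusted p = 0.192), and Fkbp4, with 0.21 ± 0.08 (adjusted p = 0.226), did not pass either. With the striatal covariate 1 member was called higher, Fkbp5 at 0.48 (edgeR adjusted p = 0.0232). That fit called 39 of all 12507 autosomal genes higher. The mean centred log2 CPM of the 13 ran from -0.05 to -0.02 in females and from 0.02 to 0.06 in males, without overlap, as for several other lists. Over all autosomal genes 6.92% and 8.23% had an unadjusted p under 0.05 in the higher and lower direction.

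Heat shock chaperones, too, were called in the higher direction only. Of 29 members, 4 were called higher and 0 lower, 26 were higher in males, 13 had an unadjusted p under 0.05 in the higher direction and 0 in the lower, and the median log2 fold change was 0.10. Over all autosomal genes 0.352% were called higher, and 6.92% and 8.23% had such a p in the higher and lower direction. The mean centred log2 CPM of the 29 ran from -0.19 to -0.05 in females and from 0.06 to 0.18 in males. The groups did not overlap on this score, nor did they for several other lists, among them potassium channels with 0 calls. Most members moved by little.

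The largest differences in the list were those of the stress-inducible Hsp70 genes, Hspa1a at chr17:34969359-34972156 and Hspa1b at chr17:34956429-34959238. Hspa1a had 2.13, 2.33, 2.62, 2.26 and 2.54 CPM in females and 3.96, 6.05, 6.51, 5.16 and 6.53 CPM in males. Hspa1b had 2.58, 2.01, 1.45, 0.753 and 2.42 CPM in females and 3.88, 7.27, 5.06, 4.14 and 7.69 CPM in males. Both were low in every female library and higher in every male library, with male control 1 the lowest male for each. Hspa1a gave 1.24 ± 0.22 on the log2 scale (SE, adjusted p = 0.00666), and Hspa1b gave 1.45 ± 0.30 on the log2 scale (SE, adjusted p = 0.0265). These neighbouring genes are near-identical copies, so how the counting divided reads between them is uncertain, and they are not independent of each other. Dnajb1, the Hsp40 partner that activates Hsp70, had 50.6, 46.01, 43.4, 48.2 and 47.5 CPM in females and 61.96, 75.6, 79.6, 61.4 and 74.9 CPM in males. All 5 male libraries were above every female one, and the difference was 0.58 ± 0.09 on the log2 scale (SE, adjusted p = 0.00269). Hsph1, an Hsp110 protein that reloads Hsp70, was at 370.5, 318, 344, 378 and 373 CPM in females and 416, 454, 403, 417 and 401 CPM in males, with 0.23 ± 0.05 on the log2 scale (SE, adjusted p = 0.0476). Ahsa2, a relative of the Hsp90 activator Ahsa1 and no member of the list, was called higher too, with 0.37 ± 0.08 (adjusted p = 0.04).

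The list kept 2 calls without female control 2, without female control 5 or without male control 2, and 2 (Dnajb1 and Hsph1) with the striatal covariate. Among all autosomal genes those fits called 29, 17, 18 and 39 higher, in that order. The list had 1 call when only genes with at least 10 counts in every library were tested. With the covariate Hspa1a was at 1.01 (adjusted p = 0.0536) and Hspa1b at 1.35 (adjusted p = 0.0908). In the 250 bases before the start, the heat shock element, searched as GAA, TTC and GAA with 2 bases between neighbours and read on both strands, was present in 3 of 24 list members (Dnajb6, Hspd1 and Hspe1), in 1 of 38 called higher genes (Tra2b, a splicing factor) and in 0.453% of all.

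**Figure D2:**
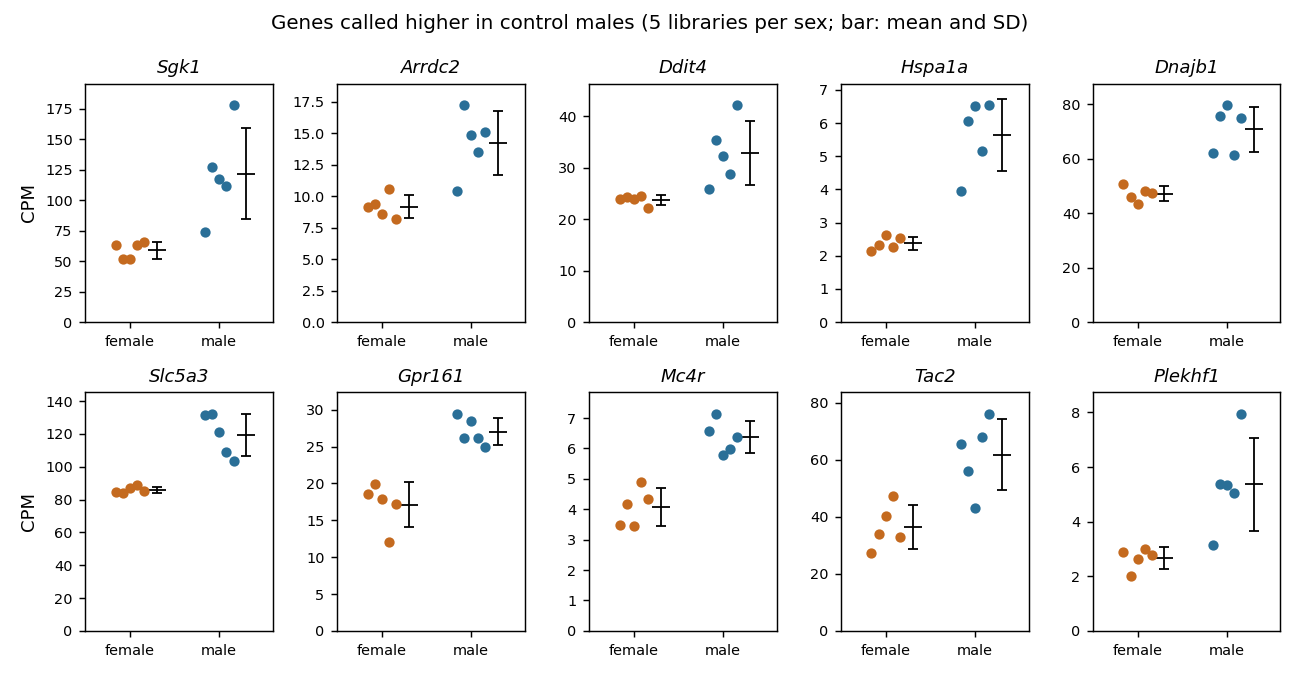
CPM of 10 genes called higher in control males, with a point for each library (females 1 to 5 and males 1 to 5 from left to right) and bars for the mean and SD. The sexes overlap for Arrdc2 and Tac2 and are apart for the other genes shown, and male control 1 is the lowest male for Sgk1, Arrdc2, Ddit4, Hspa1a and Plekhf1.

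Transport of osmolytes gave calls in both directions among 17 genes. Slc5a3, the sodium-coupled carrier of myo-inositol, had 84.8, 84.1, 87.1, 88.8 and 85.5 CPM in females and 131, 132, 121, 109 and 104 CPM in males. The female libraries lay close together and all males were above them, with 0.47 ± 0.07 on the log2 scale (SE, adjusted p = 0.00147). Lrrc8b, a subunit of the volume-regulated anion channel, was lower in males, with 127, 118, 135, 136 and 153 CPM in females, 98.3, 108, 101, 108 and 114 CPM in males and -0.33 ± 0.08 on the log2 scale (SE, adjusted p = 0.048). Another subunit gene, Lrrc8d, had -0.27 ± 0.06 (adjusted p = 0.0524) and did not pass. Lrrc8b was called in 2 of the 10 fits that leave out a control library (without female control 2 or male control 5), and Slc5a3 in all 10. The median of the list was 0.01, with 9 members higher and 8 lower in males. Among all autosomal genes 0.352% were called higher and 0.304% lower.

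Among 28 neuropeptides and peptide-processing genes, Tac2 was called higher in males and Pcsk2 lower. Tac2, which encodes neurokinin B, had 27.2, 34.1, 40.4, 47.4 and 32.8 CPM in females and 65.7, 56.2, 43.3, 68.05 and 76.1 CPM in males. Its groups overlapped at female control 4 and male control 3, and the difference was 0.84 ± 0.18 on the log2 scale (SE, adjusted p = 0.0306). Pcsk2, the prohormone convertase PC2 that cuts peptide precursors, had 234, 183, 190.1, 226 and 238 CPM in females and 142, 171, 157, 166 and 164 CPM in males, with -0.42 ± 0.10 on the log2 scale (SE, adjusted p = 0.04). With the striatal covariate neither kept its call (0.56, adjusted p = 0.194, for Tac2 and -0.18, adjusted p = 0.296, for Pcsk2). Tac2 was called in 3 of the 10 fits that leave out a control library (without female control 3 or 4 or male control 3) and Pcsk2 in 2 (without female control 2 or 3). Crh, the corticotropin-releasing hormone gene, did not overlap between the sexes at 16.8, 16.5, 14.5, 17.7 and 17.4 CPM in females and 25.7, 23.3, 23.3, 24.6 and 25.2 CPM in males, and missed the threshold with 0.58 ± 0.14 (adjusted p = 0.0507). Galanin's gene Gal had 1.34 ± 0.38 (adjusted p = 0.094). In the fit of all 4 groups 0.352% of all autosomal genes were called higher and 0.304% lower. When edgeR was fitted to the control groups only, 4 of the 28 were called higher and 1 lower. That fit called 88 of all 12507 autosomal genes higher and 188 lower.

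Of 30 receptor genes, 22 were higher in males, 1 was called higher and 0 lower, 9 had an unadjusted p under 0.05 in the higher direction and 0 in the lower, and the median log2 fold change was 0.13. The shares of all autosomal genes were 0.352% called higher, and 6.92% higher and 8.23% lower at that p. The called gene was Mc4r, the melanocortin 4 receptor that is best known for restraining food intake. It had 3.48, 4.18, 3.44, 4.89 and 4.35 CPM in females and 6.57, 7.13, 5.79, 5.9966 and 6.38 CPM in males, without overlap. Its difference was 0.71 ± 0.13 on the log2 scale (SE, adjusted p = 0.0078), and it kept its call with the striatal covariate (0.66, adjusted p = 0.0427). The orexin receptor gene Hcrtr1 had 1.39, 1.95, 2.20, 2.64 and 1.81 CPM in females and 3.66, 3.09, 3.18, 4.74 and 4.85 CPM in males, also without overlap, with 1.15 ± 0.29 (adjusted p = 0.0566). Vipr2, a receptor for vasoactive intestinal peptide, had 0.57 ± 0.17 (adjusted p = 0.106), and the cholecystokinin receptor gene Cckar had 1.41 ± 0.43 (adjusted p = 0.119). All are expressed at under 10 CPM, where counting error is largest, and only Mc4r passed in the fit of all 4 groups. When edgeR was fitted to the control groups only, 4 of the 30 were called higher.

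Sex steroid signalling gave 0 calls among 13 genes in edgeR's fit of all 4 groups and 0 in DESeq2. An unadjusted p under 0.05 was reached by 3 in the higher and 1 in the lower direction. Of all autosomal genes 6.92% and 8.23% did so. Other edgeR fits called 2 higher with only the control groups and 2 higher with an oligodendrocyte marker score as the covariate. With the striatal covariate 1 was called lower. Greb1, a gene known to respond to oestrogen in other tissues, had the highest log2 fold change of all autosomal genes, at 1.66. It had 2.78, 4.23, 4.41, 7.53 and 1.57 CPM in females and 10.97, 9.15, 6.94, 14.8 and 13.1 CPM in males, overlapping at female control 4, and did not pass (1.66 ± 0.43, adjusted p = 0.0648). The progesterone receptor gene Pgr had 37.2, 40.04, 43.2, 47.1 and 40.9 CPM in females and 48.7, 44.7, 44.1, 49.4 and 46.5 CPM in males, with 0.19 ± 0.06 (adjusted p = 0.143).

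Gpr161 had the smallest p of all autosomal genes. It encodes an orphan receptor of the primary cilium that restrains Hedgehog signalling, and lies at chr1:165281184-165326747. Its values were 18.6, 19.96, 17.9, 12.05 and 17.2 CPM in females and 29.4, 26.1, 28.5, 26.1 and 24.9 CPM in males. The lowest male library was above the highest female one, with female control 4 the lowest of all, and the difference was 0.59 ± 0.09 on the log2 scale (SE, adjusted p = 0.00106). It was the only called gene among 44 of the primary cilium and Hedgehog list, whose median was 0.00. The share of all autosomal genes called higher was 0.352%.

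Kinase feedback and insulin signalling contributed single genes. Spry4, an inhibitor of Ras and MAP kinase signalling, had 14.3, 12.9, 13.98, 15.8 and 14.5 CPM in females and 17.9, 20.7, 22.7, 18.7 and 19.01 CPM in males, with 0.48 ± 0.08 on the log2 scale (SE, adjusted p = 0.00425). It was called alone among 16 feedback inhibitors, and Spry1 pointed the other way with -0.32 ± 0.11 (adjusted p = 0.165). Of 35 genes of insulin, FoxO and PI3 kinase signalling, Sgk1, Irs2 and Klf15 were called higher and 0 lower. Irs2, an adaptor of the insulin receptor, had 126, 113, 108, 121 and 117 CPM in females and 137, 142, 139, 138 and 139 CPM in males, and Klf15, a transcription factor of fasting metabolism, had 35.4, 33.6, 34.2, 33.1 and 32.4 CPM in females and 40.5, 46.4, 37.6, 38.1 and 42.5 CPM in males. Neither gene overlapped, with 0.25 ± 0.06 on the log2 scale (SE, adjusted p = 0.04) for Irs2 and 0.27 ± 0.06 on the log2 scale (SE, adjusted p = 0.0474) for Klf15. Sgk1 was the 1 call of the list with the striatal covariate, while Irs2 was at 0.27 (adjusted p = 0.0867) and Klf15 at 0.24 (adjusted p = 0.169), close to their sizes without it. The list had 1 call without female control 2, 4 or 5 and without male control 1, 2, 3 or 5. The list's median was -0.03, and 6 of its 35 members had an unadjusted p under 0.05 in the higher and 4 in the lower direction. The shares of all autosomal genes were 6.92% higher and 8.23% lower at that p, and 0.352% were called higher. Outside the list, Sh2b2, an adaptor of receptor kinases, had 0.49 ± 0.09 (adjusted p = 0.011), Prr5, a subunit of the kinase complex mTORC2, had 0.42 ± 0.08 (adjusted p = 0.0121), and Adipor2, an adiponectin receptor, had 0.30 ± 0.06 (adjusted p = 0.0129).

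Zinc finger genes with Zfp symbols, most of them presumed DNA-binding repressors, were called in the higher direction only. Of 309 measured, 195 were higher, 46 had an unadjusted p under 0.05 in the higher and 10 in the lower direction, 3 were called higher and 0 lower, and the median was 0.03. Among all autosomal genes 0.352% were called higher, and 6.92% and 8.23% had an unadjusted p under 0.05 in the higher and lower direction. The called genes were Zfp658 (0.43 ± 0.08, adjusted p = 0.00872), Zfp948 (0.38 ± 0.08, adjusted p = 0.0227) and Zfp57 (0.59 ± 0.14, adjusted p = 0.0469). Zfp57, which protects the methylation of imprinted genes, had 14.2, 15.4, 14.9, 12.8 and 10.8 CPM in females and 20.7, 22.9, 24.2, 20.99 and 17.7 CPM in males, without overlap. Members of this family are related in sequence, and how reads that match several of them were counted is not given in the sources used here. Zfp658 was at 0.39 with the striatal covariate (adjusted p = 0.0652) and Zfp948 at 0.40 (adjusted p = 0.0512), about as large as without it, and Zfp57 was at 0.40 (adjusted p = 0.24). The 1 member called in that fit was none of these 3. The list had 1 call without female control 2, female control 5, male control 2 or male control 4, and 8 higher and 1 lower without female control 3. Leaving out female control 3 gave 63 higher and 131 lower calls among all autosomal genes.

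Among the other genes with the smallest p, Fam126a, whose product hyccin helps to make a membrane lipid needed for myelin, had 37.1, 41.4, 41.6, 37.6 and 39.5 CPM in females and 53.2, 56.6, 55.6, 48.2 and 46.9 CPM in males. Ccdc117 had 19.1, 19.5, 19.6, 21.8 and 18.7 CPM in females and 24.9, 28.5, 29.2, 23.4 and 29.9 CPM in males. Neither overlapped, with 0.38 ± 0.06 on the log2 scale (SE, adjusted p = 0.00269) for Fam126a and 0.47 ± 0.08 on the log2 scale (SE, adjusted p = 0.00412) for Ccdc117. Plekhf1, a protein of endosomes and lysosomes, differed by more than 2-fold, with 2.91, 2.01, 2.62, 3.01 and 2.78 CPM in females and 3.14, 5.38, 5.35, 5.05 and 7.94 CPM in males. The gap between the highest female and the lowest male was small, since male control 1 was again the lowest male, and the difference was 1.09 ± 0.21 on the log2 scale (SE, adjusted p = 0.0129). Tbkbp1, an adaptor of the kinase TBK1, had 0.34 ± 0.06 (adjusted p = 0.00948). The remaining genes called higher, with log2 fold changes from 0.21 to 0.55, were Lsm11, Mat2a, Dpysl2, P4ha2, Arid5a, Trib1, Brd3, Tra2b, Crkl, Tnpo1, Arid5b, Nufip2, N4bp2, Tmed8, Pprc1 and Insyn2a. They include Mat2a, which makes the methyl donor S-adenosylmethionine, Brd3, a reader of acetylated histones, and Dpysl2, a protein of growing axons.

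Immediate early genes, which neurons switch on within minutes of activity, gave 0 calls among 22 in edgeR, with 4 at an unadjusted p under 0.05 in the higher and 2 in the lower direction, and 1 call in DESeq2. The shares at that p over all autosomal genes were 6.92% higher and 8.23% lower. Fosl2 had 41.8, 20.1, 14.3, 22.96 and 23.1 CPM in females and 34.6, 53.7, 51.2, 37.8 and 42.8 CPM in males. Female control 1 stood among the males and the other 4 females were below every male, with 0.79 ± 0.20 (adjusted p = 0.0631). Nr4a3 and Fos, also transcription factors of this class, had 0.61 ± 0.21 (adjusted p = 0.151) and 0.51 ± 0.18 (adjusted p = 0.169). The list had 2 calls without female control 1. With the striatal covariate 7 were called higher, Fosl2, Klf4 and Nr4a3 among them, and the median rose from 0.13 to 0.46. That fit called 39 of all 12507 autosomal genes higher.

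The libraries differed in markers of other cells, and these values belong beside the genes called in both directions. All 6 markers of hypothalamic and preoptic neurons, Gal among them, were higher in control males. None of the 6 was called, 3 had an unadjusted p under 0.05, and 6.92% of all autosomal genes did in that direction. Their median log2 fold change was 0.19, and 0.01 with the striatal covariate, and their mean centred log2 CPM overlapped between the sexes. All 14 markers of striatal medium spiny neurons were lower in control males, with a median log2 fold change of -0.59. All 14 were detected in every control library. An unadjusted p under 0.05 was reached by 13, where 8.23% of all autosomal genes had one in the lower direction. None of the 14 was called by edgeR, and DESeq2 called 5, where it called 126 of all autosomal genes lower. Among the other edgeR fits, 10 were called lower when only the control groups were fitted and 8 with the oligodendrocyte score as a covariate. These 2 fits called 188 and 159 of all autosomal genes lower. Their mean centred log2 CPM was 0.41, -0.04, -0.39, 0.30 and 0.32 in female controls 1 to 5 and -0.53, -0.19, -0.49, -0.42 and -0.44 in male controls 1 to 5. Female controls 1, 4 and 5 were high, and female control 3 lay within the male range, so the sexes overlapped. Pde10a, the phosphodiesterase of these neurons, had 868, 596, 449, 870.0 and 782 CPM in females and 383, 480.0, 426, 424 and 389 CPM in males. Without female control 3, 8 of the 14 were called lower, where 131 of all autosomal genes were. In such bulk tissue, fewer cells of a type and less RNA per cell cannot be told apart.

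Vascular and immune markers pointed the same way. Of 14 endothelial and pericyte markers 13 were lower in males, 1 was called and 5 had an unadjusted p under 0.05, with a median of -0.14. Their score ran from 0.01 to 0.16 in females and from -0.21 to -0.02 in males, without overlap. Scores of several other lists, such as potassium channels, did not overlap either. Of 11 microglial markers 10 were lower, 0 were called by edgeR, 0 by DESeq2 and 6 had an unadjusted p under 0.05, with a median of -0.21. Over all autosomal genes 8.23% were lower at such a p and 0.304% were called lower. Cx3cr1 and C1qa, genes of resting microglia, had -0.22 ± 0.07 (adjusted p = 0.119) and -0.27 ± 0.09 (adjusted p = 0.127). All 13 oligodendrocyte markers were lower, with a median of -0.16, but none reached an unadjusted p under 0.05 and their scores overlapped, from -0.15 to 0.41 in females and from -0.20 to 0.34 in males. Of 11 astrocyte markers 8 were lower, with a median of -0.04. With the striatal covariate 56 autosomal genes were called and 17 of the 82 calls were kept. With the oligodendrocyte score as the covariate 288 were called and all 82 calls were kept. The part of the hypothalamic, vascular, microglial and astrocyte markers in the results was not tested.

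The genes called lower with the smallest p were not neuronal channel or receptor genes. Exph5, an effector of Rab27 in vesicle transport, had 11.1, 9.82, 11.8, 10.5 and 13.5 CPM in females and 6.79, 7.53, 5.21, 8.16 and 7.91 CPM in males, without overlap, with -0.63 ± 0.11 on the log2 scale (SE, adjusted p = 0.00393). Cd59a, which blocks the last step of complement attack on a cell's own membrane, had 9.21, 10.1, 12.9, 9.79 and 11.97 CPM in females and 6.64, 7.94, 7.81, 6.57 and 7.47 CPM in males, with -0.59 ± 0.11 on the log2 scale (SE, adjusted p = 0.0078). Cldn5, the tight junction protein that seals the endothelium of the blood-brain barrier, had 27.2, 25.8, 25.01, 30.1 and 25.99 CPM in females and 21.5, 17.6, 20.3, 17.7 and 20.3 CPM in males, with -0.44 ± 0.08 on the log2 scale (SE, adjusted p = 0.0121). All 3 were lower in every male than in every female library, and all kept their call with the striatal covariate, at -0.59, -0.72 and -0.48. The endothelial markers Tek and Cdh5 did not pass, with -0.28 ± 0.08 (adjusted p = 0.105) and -0.27 ± 0.08 (adjusted p = 0.119). Cxcl12, a chemokine that endothelial cells and neurons make, had 63.2, 53.8, 58.9, 53.8 and 57.9 CPM in females and 44.6, 45.2, 47.9, 44.1 and 48.8 CPM in males, with -0.33 ± 0.06 on the log2 scale (SE, adjusted p = 0.0134). With the covariate it was at -0.29 with an adjusted p of 0.0774.

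Synaptic release gave 1 lower call. Unc13c, a Munc13 protein that primes synaptic vesicles, had 378, 303, 361, 421 and 429 CPM in females and 186, 257, 223, 254 and 249 CPM in males. Female control 2 was the lowest female and still above every male, and the difference was -0.69 ± 0.14 on the log2 scale (SE, adjusted p = 0.0194). It was the 1 gene called among 38 of the release machinery, of which 12 were higher and 26 lower in males, with a median of -0.06. Among all autosomal genes 0.304% were called lower, and 6224 were higher and 6283 lower in males. The call was lost without female control 4 or 5 or male control 1 or 3, and with the striatal covariate, where Unc13c was at -0.38 (adjusted p = 0.155). The complexin genes Cplx2 and Cplx1, which clamp vesicle fusion, had -0.35 ± 0.10 (adjusted p = 0.0853) and -0.28 ± 0.08 (adjusted p = 0.0916).

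Of 93 genes of cAMP, calcium and G protein signalling, 3 were called lower and 0 higher. An unadjusted p under 0.05 was reached by 24 in the lower and 8 in the higher direction, and the median was -0.07. Over all autosomal genes 8.23% and 6.92% had such a p in these directions, and 0.304% were called lower. Rgs4, which shortens G protein signals, had 386, 273, 292, 465 and 424 CPM in females and 222, 266, 223, 250.2 and 243 CPM in males. Rgs7bp, which anchors RGS7 proteins at the membrane, had 309.8, 232, 240.3, 332 and 336 CPM in females and 175, 202, 195, 203 and 204 CPM in males. In both, female controls 1, 4 and 5 were the highest, the same libraries that were highest in striatal markers, and female controls 2 and 3 lay closer to the males. The differences were -0.60 ± 0.13 on the log2 scale (SE, adjusted p = 0.0337) for Rgs4 and -0.56 ± 0.12 on the log2 scale (SE, adjusted p = 0.0307) for Rgs7bp. Prkca, protein kinase C alpha, had 205, 204, 198, 191 and 227 CPM in females and 156, 172, 178, 179 and 177 CPM in males, with -0.25 ± 0.06 on the log2 scale (SE, adjusted p = 0.0476). Its female libraries were not split in that way. The adenylate cyclase gene Adcy1 had -0.30 ± 0.07 (adjusted p = 0.0545) and did not pass. The list had 0 calls in the lower direction without female control 1, 4 or 5, without male control 1, 2, 3 or 4 and with the striatal covariate, and 8 without female control 3. Leaving out female control 3 gave 131 lower calls among all autosomal genes.

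**Figure D3:**
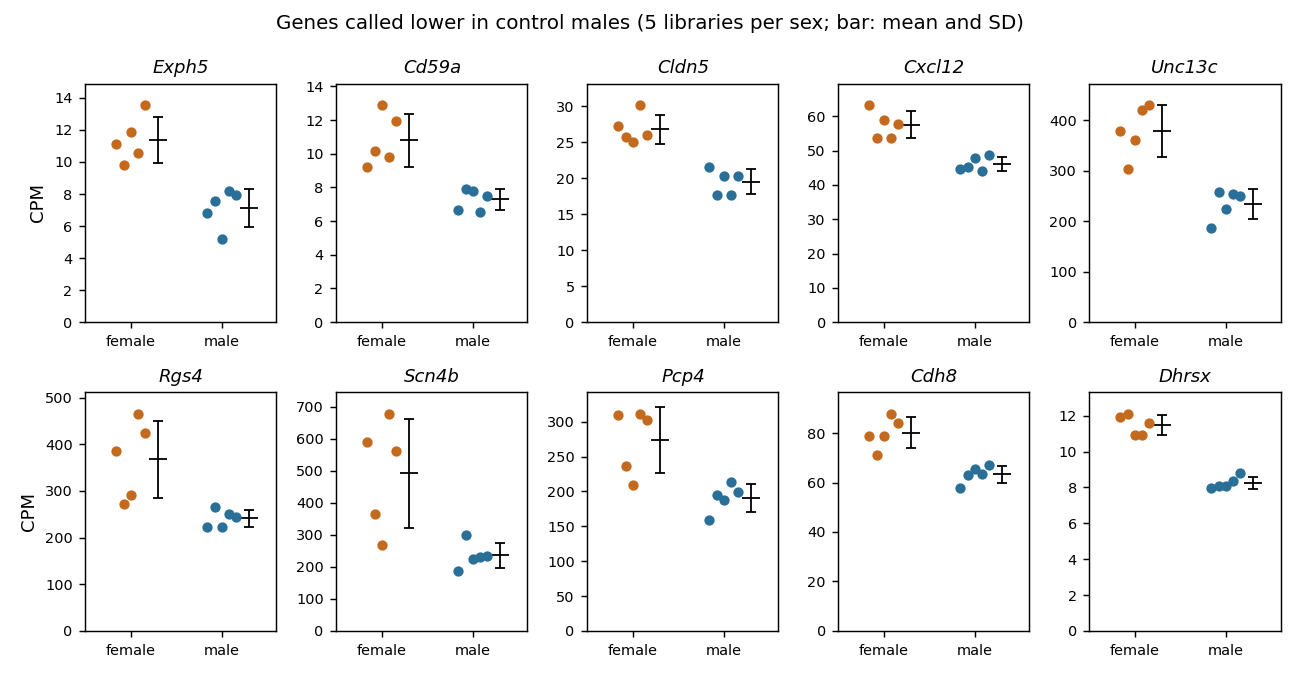
CPM of 10 genes called lower in control males, with a point for each library (females 1 to 5 and males 1 to 5 from left to right) and bars for the mean and SD. For Rgs4, Pcp4 and Scn4b the female libraries are split, with 1, 4 and 5 high and 2 and 3 near the males. The sexes overlap for Pcp4 and Scn4b. For Exph5, Cd59a, Cldn5, Cxcl12, Unc13c, Rgs4, Cdh8 and Dhrsx all females are above all males.

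Scn4b, a sodium channel beta subunit that is abundant in the striatum, had a wide split, with 589, 366, 267, 678 and 563 CPM in females and 188, 299, 226, 232 and 235 CPM in males. Female control 3 lay inside the male range, and the difference was -1.05 ± 0.25 on the log2 scale (SE, adjusted p = 0.0493). It was -0.20 with the striatal covariate, with an adjusted p of 0.259, and it was called in 2 of the 10 fits that leave out a control library (without female control 2 or 3). Of 33 sodium and calcium channel subunits it was the 1 called, with 10 lower and 1 higher at an unadjusted p under 0.05 and a median of -0.06. Among 68 potassium channel genes 0 were called by edgeR and 1, lower, by DESeq2, with 15 lower and 2 higher at an unadjusted p under 0.05. Among all autosomal genes 8.23% were lower and 6.92% higher at that p, and 0.304% were called lower. When edgeR was fitted to the control groups only, 3 sodium and calcium channel subunits were called lower. In that fit 5 potassium channel genes were called lower and 1 higher. Kcnab1, a beta subunit, had -0.45 ± 0.12 (adjusted p = 0.0741), and Kcnj4, an inward rectifier, had -0.52 ± 0.16 (adjusted p = 0.114).

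Receptors for the fast transmitters did not pass in edgeR's fit of all 4 groups. Of 42 glutamate receptor and postsynaptic genes 0 were called by edgeR and 1, lower, by DESeq2, and 15 were at an unadjusted p under 0.05, all 15 lower in males. The scaffold gene Dlgap3 had 325, 266, 193, 341 and 323 CPM in females and 187, 225, 185, 204 and 209.5 CPM in males, the same split of the females, with -0.51 ± 0.15 (adjusted p = 0.101). Grin2b, an NMDA receptor subunit, had 669, 617, 580.0, 574 and 685 CPM in females and 518, 495, 535, 498 and 463 CPM in males, free of overlap, with -0.32 ± 0.11 (adjusted p = 0.152). Of 24 GABA and glycine genes 0 were called by edgeR and 1, lower, by DESeq2, with 2 higher and 3 lower at an unadjusted p under 0.05. The lowest p among them belonged to Gabra4, a GABA-A receptor subunit, with 154, 119, 126, 155 and 159.6 CPM in females, 106, 113, 97.5, 113 and 105 CPM in males and -0.40 ± 0.10 (adjusted p = 0.0504). Among 23 receptors for monoamines, acetylcholine, adenosine and cannabinoids 0 were called by edgeR and 2, lower, by DESeq2, with 1 higher and 6 lower at an unadjusted p under 0.05. Adora2a and Drd2, both also on the striatal list, had -0.71 ± 0.19 (adjusted p = 0.074) and -0.59 ± 0.17 (adjusted p = 0.105). Over all autosomal genes 6.92% were higher and 8.23% lower at an unadjusted p under 0.05. When edgeR was fitted to the control groups only, 4 glutamate receptor and postsynaptic genes and 2 GABA and glycine genes were called, all lower. In that fit 3 of the 23 receptors for monoamines and the other ligands were called lower. With the striatal covariate the medians of the glutamate, potassium channel and sodium and calcium channel lists were 0.00, -0.03 and 0.01, where they had been -0.07, -0.06 and -0.06.

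**Figure D4:**
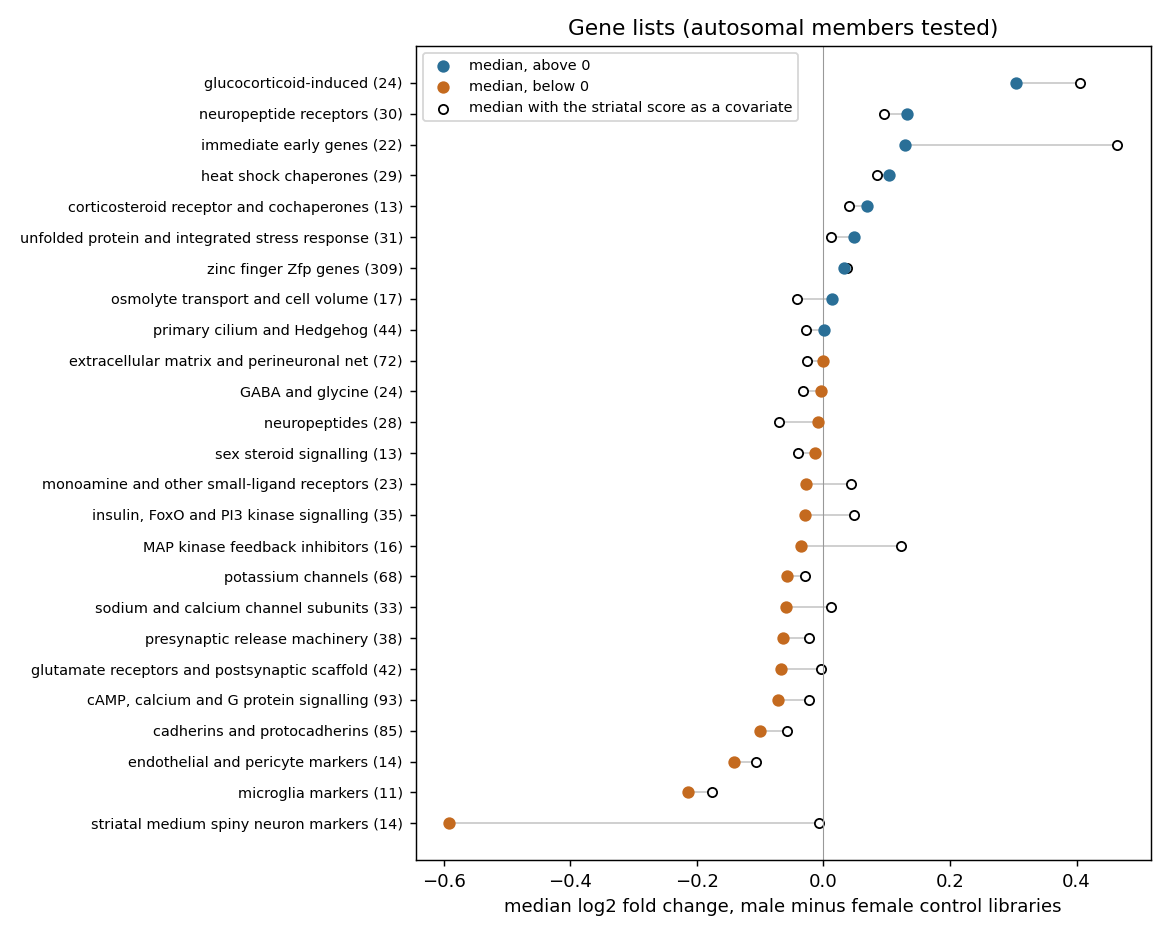
Median log2 fold change, male minus female control libraries, of the autosomal members of each gene list (number in brackets), filled for the fit of groups alone and open in the fit with the striatal covariate. Without the covariate the glucocorticoid-induced list has the highest median of the lists shown, 0.30. With it the immediate early genes do, at 0.46 against 0.41. The striatal markers have the lowest median without it, -0.59, which the covariate brings to -0.01 by its construction.

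Cadherins and protocadherins, the adhesion proteins that neurons use to recognise each other, were called in the lower direction only. Of 85 genes 63 were lower in males, 22 had an unadjusted p under 0.05 in the lower and 3 in the higher direction, 2 were called lower and 0 higher, and the median was -0.10. Of all autosomal genes 0.304% were called lower, and 8.23% and 6.92% had an unadjusted p under 0.05 in the lower and higher direction. Cdh8, a classical cadherin, had 78.9, 71.2, 79.01, 87.7 and 84.1 CPM in females and 57.9, 62.96, 65.7, 63.3 and 67.1 CPM in males, with -0.33 ± 0.07 on the log2 scale (SE, adjusted p = 0.04). Pcdhb14, of the beta protocadherin cluster, had 14.4, 13.6, 11.5, 10.9 and 13.4 CPM in females and 9.18, 9.15, 10.6, 9.79 and 9.91 CPM in males, with -0.43 ± 0.10 on the log2 scale (SE, adjusted p = 0.04). Neither gene overlapped, although the gap for Pcdhb14 was small at female control 4, the shallowest library. Pcdhb15, of the same cluster (-0.46 ± 0.11, adjusted p = 0.0547), and Pcdhga9, of the gamma cluster (-0.45 ± 0.12, adjusted p = 0.074), did not overlap either but did not pass. Clustered protocadherins are close copies, and those of the gamma cluster share their last exons, so the division of reads among them is uncertain and they are not independent. The list had 0 calls without female control 1 or 5, without male control 1, 2, 3 or 4 and with the striatal covariate, where the median was -0.06, and 1 call without female control 2 or 4 or male control 5.

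The other lower calls had varied roles. Dhrsx, an oxidoreductase gene that the annotation assigns to chromosome 4, had 11.9, 12.1, 10.95, 10.9 and 11.6 CPM in females and 7.99, 8.07, 8.10, 8.35 and 8.79 CPM in males, with -0.48 ± 0.10 on the log2 scale (SE, adjusted p = 0.0268). The libraries of each sex lay close together, and the sexes were well apart. Fbxo32, a ubiquitin ligase subunit known as atrogin-1, had 34.9, 35.97, 35.7, 47.1 and 47.5 CPM in females and 27.3, 26.1, 26.2, 25.8 and 31.1 CPM in males, with -0.51 ± 0.11 (adjusted p = 0.0306). Klf3, a transcriptional repressor, had 21.4, 20.996, 23.3, 24.8 and 23.7 CPM in females and 15.4, 16.4, 14.03, 18.6 and 17.8 CPM in males, with -0.43 ± 0.09 (adjusted p = 0.0185). In the matrix list of 72 genes 1 was called, Spock3, a secreted proteoglycan, with -0.38 ± 0.09 (adjusted p = 0.0445). The share of all autosomal genes called lower was 0.304%.

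Further genes among those with the smallest p were AI593442 (-0.53 ± 0.11, adjusted p = 0.0177), St6galnac5, which adds sialic acid to gangliosides (-0.42 ± 0.09, adjusted p = 0.0194), Ldlrad4, an inhibitor of TGF-beta signalling (-0.50 ± 0.10, adjusted p = 0.0227), Tmem132b (-0.27 ± 0.06, adjusted p = 0.024), Clvs1 (-0.31 ± 0.07, adjusted p = 0.0286), Nrde2 (-0.37 ± 0.08, adjusted p = 0.0296) and Ky (-0.77 ± 0.17, adjusted p = 0.0306). The remaining lower calls were Cntn4, Tmem200b, Rasgef1b, Coch, Zc3h6, Pcp4, Camk2n1, Rasgrp1, Scara3, Otud7a, St3gal5, Apcdd1 and Lrrtm1, with log2 fold changes from -1.12 for Tmem200b to -0.26 for St3gal5. Several of these are abundant in forebrain neurons, such as Pcp4, a calmodulin-binding protein with 310.3, 236, 209, 311 and 303 CPM in females and 159, 195, 188, 213 and 199 CPM in males, and Camk2n1, an inhibitor of CaM kinase II. Over all 38 lower genes, 3 were still called with the striatal covariate, and over the 44 higher genes 14 were. The sizes moved less for the higher genes, whose median log2 fold change went from 0.44 to 0.37, than for the lower ones, where it went from -0.43 to -0.24. With the covariate 31 of the 44 higher and 36 of the 38 lower genes were smaller in size. Mat2a was at 0.30 and Ddit4 at 0.48, as without it, while Tac2 went from 0.84 to 0.56 and Sh2b2 from 0.49 to 0.36. Among the lower genes Rgs4 went from -0.60 to -0.24, and Cd59a from -0.59 to -0.72. No called gene changed direction under any alternative.

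Lists for basic cell machinery gave no calls, with small differences that often shared a direction. Of 73 genes of oxidative phosphorylation, 72 cytosolic ribosomal proteins and 78 mitochondrial ribosomal proteins, 0 were called in each list by edgeR, with medians of -0.04, 0.08 and -0.01. An unadjusted p under 0.05 was reached by 1, 0 and 3 of them, and DESeq2 called 0 in each. Over all autosomal genes 6.92% were higher and 8.23% lower at that p, and 0.352% were called higher. Of the oxidative phosphorylation genes 54 were lower in males, of the cytosolic ribosomal genes 60 were higher, and of the mitochondrial ribosomal genes 42 were lower. The median of the cytosolic ribosomal genes turned to -0.05 with the striatal covariate, with 17 of 72 higher. Of 31 genes of the unfolded protein and integrated stress response 1, Ddit4, was called, with a median of 0.05, and the chaperone of the endoplasmic reticulum Hspa5 had 0.20 ± 0.07 (adjusted p = 0.184).

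The same contrast in stressed mice shares no library with this one, though both were fitted in 1 model. It gave 1 call (0.008%), Eps8l1, which was not called in controls. Of the 44 genes higher in control males, 29 had the same sign in stressed mice, with a median log2 fold change of 0.04 where it was 0.44 in controls. Of the 38 lower genes, 14 had the same sign, with a median of 0.03 where it was -0.43. Since the 82 genes were chosen by the control contrast, these medians describe the choice as well as the mice. The test of the difference between both sex differences called 0 of 12507 genes in edgeR at an adjusted p under 0.05, with 1293 (10.3%) at an unadjusted p under 0.05 and 19 called by DESeq2.

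An adjusted p under 0.10 for that difference was reached by 6 genes (0.048% of all), and all 6 were among the 44 that were higher in control males. The difference contains the control contrast that chose the 44, so this overlap is partly built into the test and is no separate support. For Arrdc2 the sex difference in controls exceeded that in stressed mice by 0.90 ± 0.15 (adjusted p = 0.0507). For Sgk1 the excess was 1.27 ± 0.23 (adjusted p = 0.0507), with group means of 79.0 CPM in stressed females and 67.9 CPM in stressed males, between the control females and control males. Tbkbp1 (0.49 ± 0.09, adjusted p = 0.0507), Sh2b2 (0.68 ± 0.13, adjusted p = 0.0634), Gpr161 (0.63 ± 0.12, adjusted p = 0.0634) and Trib1 (0.79 ± 0.15, adjusted p = 0.0796) were the others. At the other end, Dhrsx was at -0.37 ± 0.09 in stressed mice, close to its value in controls, but was not called there (adjusted p = 0.316). The difference between both was -0.11 ± 0.14 (adjusted p = 0.852). The Hsp70 genes kept their sign in stressed mice at smaller size, 0.31 for Hspa1a and 0.51 for Hspa1b, with differences of 0.94 ± 0.30 (adjusted p = 0.33) and 0.94 ± 0.40 (adjusted p = 0.432).

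**Figure D5:**
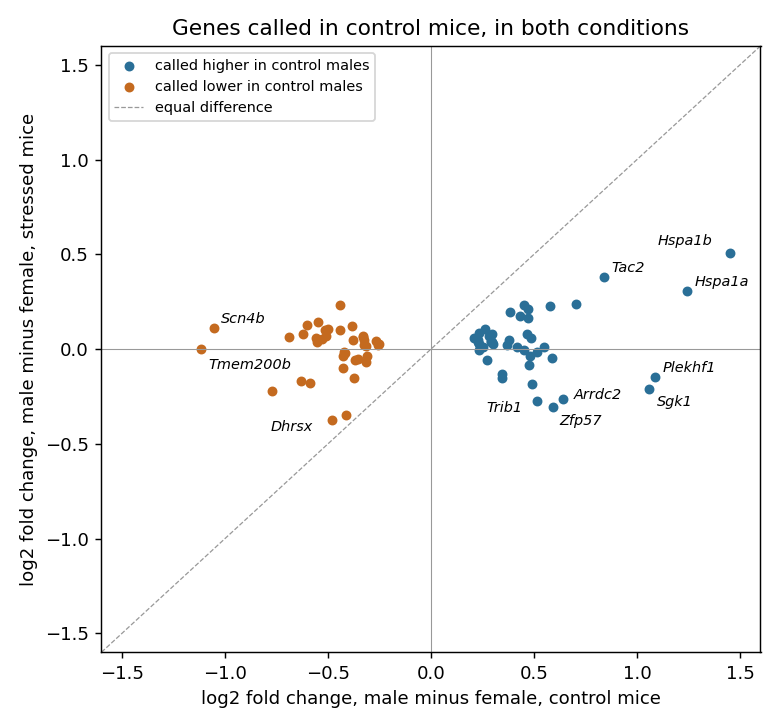
Log2 fold change, male minus female, of the 82 genes called in control mice, in controls (horizontal) and in stressed mice (vertical), with a dashed line where both are equal. The genes were chosen on the horizontal axis, most lie near 0 on the vertical axis, and Dhrsx lies close to the line.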

How the data were processed

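RNA was measured by sequencing in 20 libraries of mouse adBNST, each from 3 pooled mice. The deposited values are raw counts, whole numbers for each gene symbol that the authors did not normalize. Reads were aligned with STAR and counted with featureCounts on the mm10 build, per the submitters' processing notes, and library preparation used a kit that keeps the strand, per the labels' protocols. Tool versions, the annotation, the strand setting and the treatment of reads that match several places are not given in the sources used here, so values of near-identical, overlapping or antisense genes are uncertain. The lowest row total was 1002, so genes below some minimum are not analysed here.

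The counts were fitted in edgeR 4.0.16 (R 4.3.3) after TMM normalization, with group means for all 4 groups as the model, the quasi-likelihood test and Benjamini-Hochberg adjustment over all 12988 genes, of which filterByExpr kept 12988. P-values are two-sided, and calls need an adjusted p under 0.05. An adjusted p comes from edgeR where no other tool is named. SE is the standard error of the log2 fold change, male minus female. CPM values use TMM library sizes, and scores are the mean log2 CPM (prior count 2) of a list, centred over the 20 libraries. Control libraries held 2707881 to 31644623 counts, and a gene's median count was 86 in the shallowest and 1059 in the deepest, so values of low genes in female control 4 are the least precise. Replicates of a group differed by more than counting noise, and none was merged. Chromosomes and promoters came from RefSeq (GRCm38.p6, the assembly of mm10), matched for 12939 genes by symbol, 42 by synonym and 2 through GENCODE.

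Named genes are the 15 called genes with the smallest p in each direction, every called member of a list, and up to 4 members with the smallest p of each list described. Lists carry no test of their own, and listed genes outside the table or the autosomes are not analysed here. The 50 lists, the members and the rule were chosen with earlier results of these data known. The fit was tested on simulated data. Alternatives were DESeq2 1.42.0 and its size factors, limma 3.58.1 voom, other filters, the robust fit, the control groups alone, the replicate number as a block, striatal or oligodendrocyte scores as covariates, and leaving out each library. Results for a few genes are not reported here.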

Additional observations from a re-analysis of the deposited data

Results flagged for a closer look

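In 12 of 302 groups of 5 libraries (151 genes in each sex), 1 library stood apart from the other 4, by a gap of more than 0.71 of the group's whole range. Chance flags about 1 in 20 groups. Male control 1 stood apart 4 times: it was low for Prkca at 155.5 CPM, for Adipor2 at 83.54 CPM and for Adcy1 at 126.9 CPM, and high for Vipr2 at 9.555 CPM. Male control 2 was high for the striatal genes Adora2a (98.35 CPM) and Drd2 (81.8 CPM), where the other males had at most 82.55 and 72.33 CPM. Male control 5 was high for Fbxo32 (31.14 CPM) and for Grm3, a glutamate receptor gene (102.3 CPM). Among females, library 4, the shallowest, was high for Ccdc117 (21.84 CPM) and for Dusp7, a MAP kinase phosphatase gene (53.08 CPM), and library 5 was low for Ddit4 (22.12 CPM) and high for Adipor2 (81.72 CPM). The called genes among these kept the direction of their sex difference in every alternative fit.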

How the results depend on the processing

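The control contrast gave 82 calls, and 227 with DESeq2 (all 82 kept), 49 with limma-voom, 276 when only the control groups were fitted and 288 with the oligodendrocyte score as a covariate. It gave 56 with the striatal score, 66 with at least 10 counts in every library, 75 with DESeq2 size factors, 79 with the robust fit and 82 with no filter. Leaving out 1 library gave 22 to 194 calls. The stressed contrast (1 call) gave 4 with DESeq2, 2 with limma-voom, 0 with the stricter filter, 0 with only its groups, 4 with the striatal and 3 with the oligodendrocyte score, and 0 to 2 without 1 library. The difference between both contrasts (0 calls) gave 3 with DESeq2 size factors, 19 with DESeq2, 3 with the stricter filter, 1 with the striatal and 7 with the oligodendrocyte score, and 0 to 4 without 1 library (4 without female control 2 or male control 1, 3 without female stressed 4, 1 without female control 1). The striatal covariate reversed the sign of 3 genes that were not called, Gabrd at 0.053, Gabrg1 at -0.012 and Syt6 at 0.0045. The cause of these shifts was not tested. With the replicate number as a block the control contrast gave 37 calls, 36 of them among the 82, and the stressed contrast 0. The labels do not say that a number pairs the libraries, same-numbered control libraries correlated at 0.001 to 0.24, and 1 of 5 correlated best with its own number. Leaving out a library also lowers the number of libraries per group from 5 to 4. Depth limits the low genes most: Hspa1b in female control 4 rests on few counts.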
